A study of Rattus norvegicus with 10 samples.

Results

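In 14 genes the hypothalamic signal did not spread evenly over the 10 rats but fell into a lower and an upper level with an empty gap between them, and the rats on either side changed from gene to gene. The members were chosen by their measured values: for each probe set naming a single gene the 10 log2 signals were sorted, and it was kept where the largest gap between neighbors was at least 0.4 and at least 50% of the range, with 2 or more rats on each side. Genes of the rat MHC (RT1) and Cga were dropped, which removed 0 and 1 probe sets. This left 16 probe sets of 14 genes, out of 20826 probe sets that name 14217 genes. Because the gaps selected the genes, the levels are given as a description without a test. The rule did not use the diet labels, but it selected for a wide spread over the same 10 values, and rank product calls are more frequent where values spread widely.

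Male Wistar rats were raised on solid chow (C group, 5 rats) or powdered feed (P group, 5 rats) for 8 days, after 2 days of powdered feed shared by both groups, and were 4 weeks old when the hypothalamus was taken. Each rat was read on 1 Affymetrix rat genome array, and the study asked whether chewing solid food changes hypothalamic transcripts. Rats are named below by diet and number, for example Chow 3 or Powder 5. Litter, cage and genotype are not given in the labels used here, so p-values measure only the spread between these rats, and numbers shared between the diets are used only as names.

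Wistar rats are an outbred stock, so that animals of 1 diet group are not genetically alike, and transcripts can differ stably between such animals whatever they were fed. An array reads a transcript through short probes of fixed sequence, and the probes of a set are summarized into 1 signal. The 14 genes have no common function: they include a nucleotidase, a collagen receptor, a starch-digesting enzyme, regulators of endosomes, actin, splicing and protein turnover, and a pair of enzymes of vitamin A metabolism.

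Most of the table did not vary. Over all 31042 probe sets, hybridization controls left out, 92.6% had a standard deviation (SD) below 0.001 over the rats and 4.48% one above 0.1. Chow 1 and Chow 4 correlated least with the other arrays (median Pearson r of 0.99755 and 0.99815, against 0.99860 to 0.99890 for the remaining 8 rats). Of the tissue's own markers, 10 of 14 measured hypothalamic neuron genes lay above the median of all probe sets, with Pmch at a mean of 12.97, whereas Pomc was flat at 6.75. Neurod6 and Tbr1, which mark cortex and hippocampus, had means of 6.91 and 6.31. Camk2a was the only measured gene of that marker list above the median of all probe sets. Neurod6 varied between the rats, so its low mean does not show that every dissection was free of cortex.

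Lysmd4, which encodes a protein with a LysM domain, had the widest gap. Its signal was 7.95 in Chow 2, 8.01 in Chow 3, 7.97 in Chow 4 and 7.91 in Powder 3. The other rats lay at 5.88 in Chow 1, 5.94 in Chow 5, 5.96 in Powder 1, 5.87 in Powder 2, 5.73 in Powder 4 and 5.84 in Powder 5. The empty gap of 1.94 took 85.5% of the whole range, the spread within either level was at most 0.23, and the mean of the upper level was 4.25-fold that of the lower. The lower level lay near the floor of the arrays, whose lowest signal was 5.23, so the fold is taken over near-floor values. Both diets held rats of both levels, 3 of 5 C rats and 1 of 5 P rats being at the upper one.

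**Figure D1:**
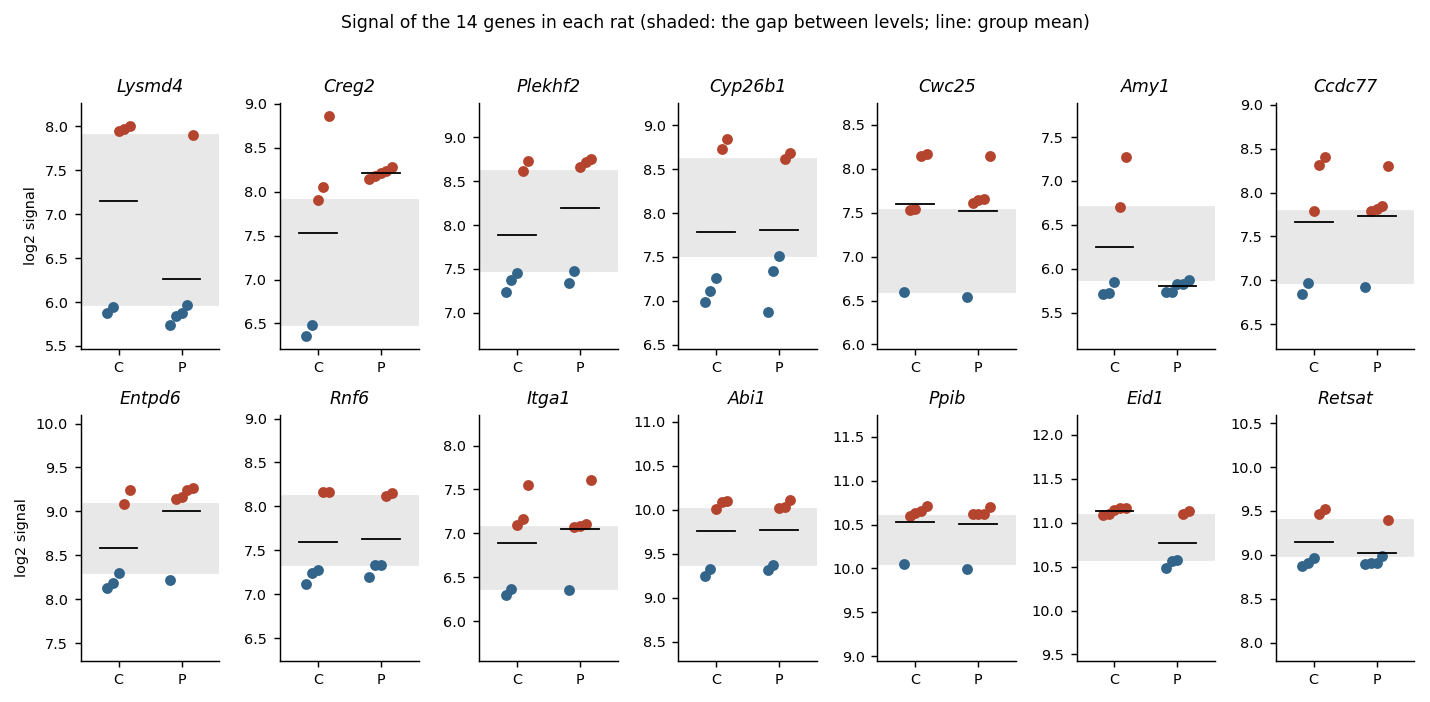
Each panel plots the log2 signal (y axis, the same height in log2 units in every panel) of 1 gene in the 5 rats of the C group and the 5 of the P group, red for the upper and blue for the lower level; the line is the group mean and the shading the gap. Lysmd4 had the widest gap (1.94), and in Creg2, Cwc25, Amy1, Ccdc77 and Itga1 the upper rats were themselves spread out.

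A further pair of Lysmd4 probe sets split the same rats in the opposite direction. On the second set the 4 rats at the upper level of the first set had 8.20 to 8.27 and the other 6 had 8.53 to 8.68. On the third set they had 8.56 to 8.70 against 8.95 to 9.11. So the rats that were 2.09 higher on the first set were 0.36 and 0.37 lower on these, in log2 units, while the remaining Lysmd4 probe set was flat at 6.86. The probe sets of Lysmd4 thus gave no single direction between these rats. Bmp4, a secreted growth factor, was the probe set of another gene most alike to Lysmd4 over the 10 rats (Pearson r = 0.92, given as a description).

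Several members act at the cell surface or in the secretory pathway. Entpd6 encodes an ectonucleotidase, which removes phosphates from extracellular nucleotides. It lay at 9.08 in Chow 4, 9.24 in Chow 5, 9.17 in Powder 1, 9.14 in Powder 2, 9.27 in Powder 4 and 9.24 in Powder 5. It lay at 8.18 in Chow 1, 8.13 in Chow 2, 8.30 in Chow 3 and 8.21 in Powder 3, which left a gap of 0.78 (68.4% of the range). The upper level held 2 of 5 C and 4 of 5 P rats, and its mean was 1.98-fold the lower. Entpd6 has a single probe set naming it alone, and the most alike probe sets of other genes were those of Synm, Magi1 and Erap1, with r of -0.83, -0.77 and -0.75.

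Itga1, the alpha 1 integrin subunit that binds collagen, was at 6.36 in Chow 4, 6.29 in Chow 5 and 6.36 in Powder 4. Above the gap of 0.70 it was at 7.16 in Chow 1, 7.10 in Chow 3, 7.09 in Powder 1, 7.07 in Powder 2 and 7.11 in Powder 3, and higher again in Chow 2 (7.55) and Powder 5 (7.61). The rats thus stood in 3 tiers, with a second gap of 0.39 (30.0% of the range).

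Creg2 encodes a secreted glycoprotein found mainly in brain. It was at 6.48 in Chow 3 and 6.36 in Chow 4, 1.42 below every other rat. Chow 1 was at 7.90, Chow 5 at 8.06 and the 5 P rats at 8.15 to 8.28, while Chow 2 reached 8.87. Both rats of the lower level and the single highest rat were on chow, so the SD was 1.08 over the C rats and 0.0507 over the P rats.

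Amy1, the amylase of saliva that breaks down starch, was at 7.27 in Chow 3 and 6.71 in Chow 5, against a near-floor 5.71 to 5.88 in the other 8 rats. A probe set shared by Amy1 and Amy2a3 was at 7.32 and 6.74 in the same rats and at 5.79 to 5.92 in the rest. By its annotation this shared set cannot tell the amylase genes apart, while the member set names Amy1 alone. Both rats of the upper level were in the C group. Ppib, the endoplasmic reticulum cyclophilin that helps procollagen fold, was at 10.05 in Chow 2 and 9.99 in Powder 1 and at 10.59 to 10.71 in the others, a gap of 0.54.

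Members tied to membranes and the cytoskeleton were Plekhf2, Abi1 and Ccdc77. Plekhf2 encodes an endosomal protein that binds phosphoinositides. It was at 8.73 in Chow 2, 8.62 in Chow 5, 8.66 in Powder 1, 8.75 in Powder 2 and 8.72 in Powder 5. It was at 7.24 in Chow 1, 7.37 in Chow 3, 7.45 in Chow 4, 7.34 in Powder 3 and 7.48 in Powder 4. The gap was 1.14 (75.3% of the range), the means differed 2.49-fold, and the rats were split 5 and 5, with 2 C and 3 P rats on the upper side. Its second probe set was flat at 6.48.

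Abi1, a part of the WAVE complex that drives actin branching, was at 9.32 in Chow 3, 9.25 in Chow 4, 9.31 in Powder 1 and 9.37 in Powder 4 and at 10.01 to 10.11 in the other 6 rats. Each diet had 3 rats at the upper level, and the second Abi1 probe set was flat at 10.32. Ccdc77, a coiled-coil protein, had 2 member probe sets. On the brighter set it was at 6.85 in Chow 3, 6.97 in Chow 4 and 6.92 in Powder 4, at 7.79 to 7.84 in Chow 1, Powder 2, Powder 3 and Powder 5, and at 8.31 to 8.40 in Chow 2, Chow 5 and Powder 1. On the other set the same rats stood in the same 3 tiers, at 6.65 to 6.76, 7.58 to 7.70 and 8.17 to 8.27.

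Cwc25, Rnf6 and Eid1 act in the nucleus or on protein turnover. Cwc25 belongs to the spliceosome, and its signal also came in 3 tiers. It was at 6.59 in Chow 5 and 6.54 in Powder 5, at 7.53 to 7.65 in Chow 1, Chow 3, Powder 1, Powder 2 and Powder 4, and at 8.15 to 8.17 in Chow 2, Chow 4 and Powder 3. Rnf6, a RING-type ubiquitin ligase, was at 8.16 in Chow 1, 8.17 in Chow 5, 8.11 in Powder 1 and 8.15 in Powder 5, and at 7.11 to 7.34 in the others.

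Eid1 encodes an inhibitor of the p300 histone acetyltransferase. It was at 10.58 in Powder 1, 10.49 in Powder 2 and 10.56 in Powder 3. All 5 C rats were at the upper level, at 11.17 in Chow 1, 11.17 in Chow 2, 11.10 in Chow 3, 11.14 in Chow 4 and 11.08 in Chow 5, and so were Powder 4 (11.14) and Powder 5 (11.10). The 3 rats of the lower level were all on powdered feed, yet the diets overlapped.

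The retinoid enzymes Cyp26b1, which breaks down retinoic acid, and Retsat, which saturates retinol, had the most similar rats among genes of 1 chromosome. Cyp26b1 on its brighter set was at 8.73 in Chow 1, 8.84 in Chow 4, 8.69 in Powder 2 and 8.62 in Powder 3. It was at 7.26 in Chow 2, 6.98 in Chow 3, 7.12 in Chow 5, 6.87 in Powder 1, 7.34 in Powder 4 and 7.51 in Powder 5. The gap was 1.11 and the second set put the same rats at 7.50 to 7.71 and 6.79 to 6.98.

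Retsat was at 9.52 in Chow 1, 9.46 in Chow 4 and 9.40 in Powder 2, and at 8.87 to 8.99 in the rest, a gap of 0.41. Chow 1 and Chow 4, the arrays least like the others, were thus at the upper level of both genes. Without them Retsat no longer met the rule, while Cyp26b1 still did. Powder 3, the rat that differed between the genes, had the highest Retsat signal of the lower level (8.99). In the GRCr8 annotation the genes lie on the same chromosome with 138 annotated genes between them. Their promoters are shown because these members of 1 chromosome differed in only 1 rat. Creg2 with Ccdc77 and Ccdc77 with Abi1, on different chromosomes, also differed in 1 rat, and their promoters are not shown. Control of either gene by retinoic acid was not tested. RefSeq (GRCr8) gives the 250 bases before each start as chr4:118616177-118616426 on the minus strand for Cyp26b1 and chr4:106211209-106211458 on the plus strand for Retsat, and capitals mark AGGTCA, the half-site of retinoic acid receptors, searched on both strands:
Cyp26b1: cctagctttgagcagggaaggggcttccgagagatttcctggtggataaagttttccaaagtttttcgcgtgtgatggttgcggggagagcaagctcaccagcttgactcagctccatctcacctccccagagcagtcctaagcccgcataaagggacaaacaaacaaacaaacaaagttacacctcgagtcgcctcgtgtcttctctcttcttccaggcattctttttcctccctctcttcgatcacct
Retsat: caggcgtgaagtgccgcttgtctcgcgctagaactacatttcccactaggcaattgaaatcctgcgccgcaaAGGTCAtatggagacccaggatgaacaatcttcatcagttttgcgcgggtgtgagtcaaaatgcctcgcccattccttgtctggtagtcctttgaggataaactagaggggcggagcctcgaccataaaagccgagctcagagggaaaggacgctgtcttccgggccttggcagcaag
Retsat holds 1 copy, which begins 178 bases before the start, and Cyp26b1 holds 0 in this window, while 14.1% of 33469 promoters of this length hold the letters on either strand. RefSeq promoters were matched for 11 of the 14 genes.

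Markers of the leptomeninges, the membranes that cover the brain, moved with Cyp26b1. All 13 listed markers varied, and 11 of 13 were higher in each of the 4 upper rats than in any of the other 6. Ptgds was at 12.73 to 13.14 against 11.09 to 12.01, Igf2 at 10.83 to 11.33 against 9.62 to 10.18 and Aldh1a2, which makes retinoic acid, at 7.98 to 8.68 against 7.17 to 7.56, while Mgp and Islr overlapped. The mean of the list, as a deviation from each marker's own mean, was 0.23 to 0.76 in the upper rats and -0.65 to -0.18 in the lower ones. For Retsat 0 of 13 markers separated its sides. Powder 3 was high in the list and low in Retsat, and Mgp and Islr overlapped even apart from that rat. The part of this tissue in the Cyp26b1 levels was not tested, and in bulk RNA more cells of a type and more RNA per cell cannot be told apart. Of 18 measured retinoid-related genes other than Cyp26b1, a list drawn up after the values were seen, 9 had a varying probe set. The 5 higher in all 4 rats than in any other were Rbp4, Crabp2, Rarres2, Retsat and Aldh1a2, the last also in the leptomeningeal list. Rbp4 was at 8.64 to 9.22 against 7.69 to 8.02 and Crabp2 at 7.99 to 8.52 against 7.05 to 7.43. Retsat cleared only narrowly, at 8.99 to 9.52 against 8.87 to 8.96. Among all 1389 varying probe sets compared, 171 were likewise higher in these 4 rats.

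**Figure D2:**
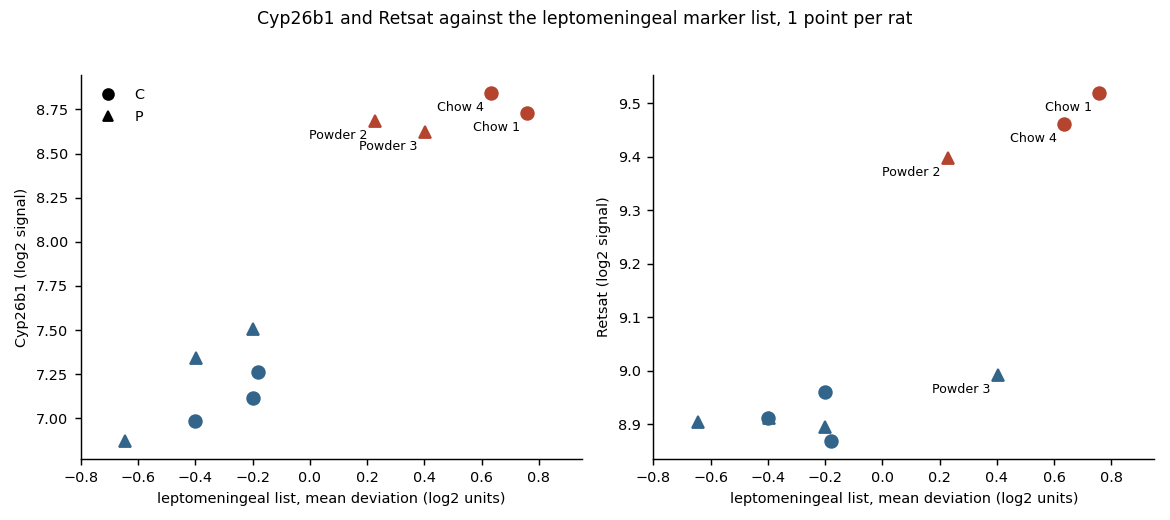
Each point is 1 rat (circles C group, triangles P group; red for the upper level of the gene plotted), with the mean deviation of 13 leptomeningeal markers in log2 units on the x axis and the log2 signal of Cyp26b1 (left) or Retsat (right) on the y axis. The 4 rats with the highest list means had Cyp26b1 at 8.62 to 8.84, and among them Powder 3 alone had Retsat in the lower level (8.99).

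The sides of the remaining marker lists overlapped for nearly all members. Over 9 lists and 14 genes there were 126 combinations, of which 2 did not overlap: Cyp26b1 with the leptomeninges, and Creg2 with microglia, whose 2 varying markers had a mean deviation of 0.12 in both lower rats and -0.50 to 0.09 in the others. For choroid plexus (1 varying of 7 measured), erythrocytes (2 of 3), anterior pituitary (1 of 8), thalamus (1 of 5), cortex and hippocampus (3 of 6), oligodendrocytes (5 of 5) and hypothalamic neurons (9 of 14) the sides overlapped for each of the 14 genes. By symbol, 1 member belonged to drug and glutathione metabolism (Cyp26b1, a class of 0.999% of all genes named), and 0 of 14 to zinc fingers, solute carriers, ribosomal proteins, unnamed gene models, olfactory and vomeronasal receptors or immune genes outside RT1.

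No grouping of rats occurred in more than 1 gene. The 14 genes gave 14 distinct groupings, and of 91 gene pairs 0 had the same rats on each side. Exchanging 1 rat would have matched 3 pairs: Creg2 with Ccdc77 (Powder 4 differed), Ccdc77 with Abi1 (Powder 1) and Cyp26b1 with Retsat (Powder 3). Another 9 pairs differed in 2 rats, 19 in 3, 37 in 4 and 23 in 5, the most that 10 rats allow. The smaller side held 2 rats in 4 genes, 3 in 4 genes, 4 in 5 genes and 5 in Plekhf2, and it was the lower level in 8 genes and the upper in 5.

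**Figure D3:**
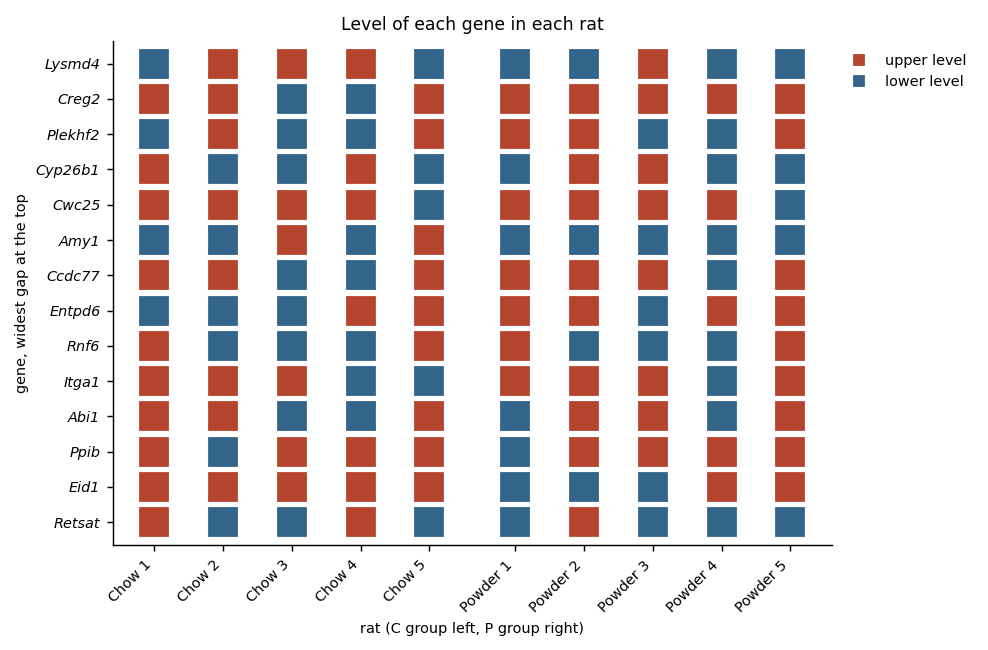
Each column is a rat and each row 1 of the 14 genes, ordered by the width of the gap, with red squares for the upper and blue squares for the lower level. Every row has its own pattern, and 11 of 14 rows have both colors in both diets.

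A rat was at the upper level of 5 (Powder 4) to 10 genes (Chow 1 and Powder 2) of the 14. Rats of the same diet were at the same level for 4 to 10 genes (median 7, 20 pairs) and rats of different diets for 4 to 12 genes (median 8, 25 pairs), the closest pair being Chow 5 and Powder 5. Chow 1 and Chow 4, the arrays that stood apart, shared a level in 7 of 14 genes.

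Members were also compared with their chromosomal neighbors, which the rule did not use. Of the 91 member pairs 5 lay on the same chromosome and 0 had at most 50 annotated genes between them, so no pair of neighboring members could share a grouping. Among other probe sets with an SD above 0.1, a member's exact rats were separated without overlap by 3 of 43 within 50 annotated genes (6.98%; the 43 sets name 39 genes) and by 476 of 14121 combinations with sets farther away (3.37%). The neighbors were Dpy19l4 for Plekhf2, Sppl2a for Eid1 and Kdm5a for Ccdc77, named after their values were seen.

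Dpy19l4, of the family of C-mannosyltransferases, has 7 annotated genes between it and Plekhf2. It was at 8.66 to 8.88 in the 5 rats of the upper Plekhf2 level and at 9.05 to 9.22 in the other 5, so the direction was opposite, and with r = -0.90 it was the probe set most alike to Plekhf2 (then Acyp2 at 0.89 and Scn1a at 0.85). Sppl2a, an intramembrane protease with 18 annotated genes between it and Eid1, was at 7.03 to 7.32 in the 7 upper rats and at 6.59 to 6.85 in Powder 1, Powder 2 and Powder 3, the same direction as Eid1. Kdm5a, a histone demethylase gene adjacent to Ccdc77, was at 7.98 to 8.50 in the upper rats and at 8.51 to 8.67 in the lower ones, a separation of only 0.01, and its second probe set overlapped (8.02 to 8.42 against 8.34 to 8.53).

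**Figure D4:**
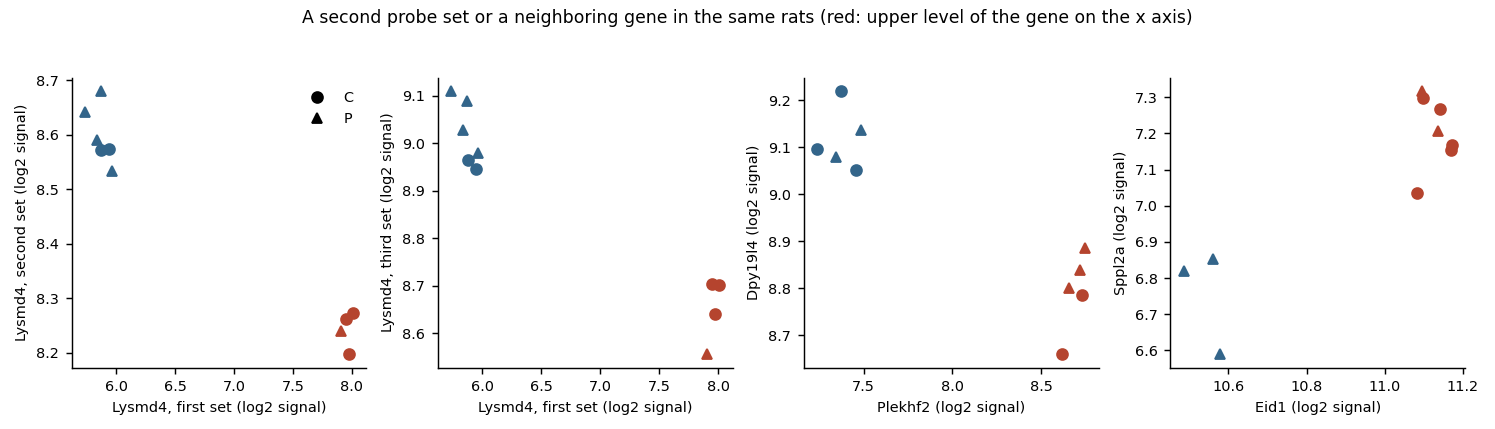
Each point is 1 rat (circles C group, triangles P group), red for the upper and blue for the lower level of the gene on the x axis, and both axes are log2 signals. Other Lysmd4 probe sets (8.20 to 8.27 against 8.53 to 8.68 on the second set) and the neighbor Dpy19l4 ran opposite to the member, and Sppl2a ran with Eid1.

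All varying probe sets of other genes, the neighbors included, were also compared with each member's rats. The number that separated them ran from 6 for Entpd6 and 7 for Eid1 to 118 for Cwc25 (8.49% of those tested) and 175 for Cyp26b1 (12.6%). These counts are not like for like, since 2 rats are set apart by chance more often than 4. Cwc25 had 2 rats on its smaller side, Eid1 3, and Entpd6 and Cyp26b1 4. Other members with 2 had 64 (Ppib), 50 (Amy1) and 29 (Creg2). For Cwc25, 24 probe sets separated its rats by more than 0.2, and all 24 were lower in Chow 5 and Powder 5, as Cwc25 was. They included Wasl (8.63 to 8.65 against 8.95 to 9.08), an activator of actin branching, Prpf4b (8.19 to 8.23 against 8.52 to 8.72), a splicing kinase, and Atrx (7.55 to 7.68 against 7.96 to 8.11), a chromatin remodeler. The 5' beta-actin control was 11.39 in Chow 5 and 11.29 in Powder 5 in a range of 11.29 to 11.41 over all rats, and the part of RNA quality in these levels was not tested.

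For 6 other members further named genes separated the same rats by more than 0.2, again named after their values were seen. Separation of so few rats also arises by chance, and the number of such genes was not tested against it. The genes are therefore listed as a description, and a link to the members was not tested. Uhrf1, which binds hemimethylated DNA, was at 5.44 to 5.58 in the rats of the upper Amy1 level and at 6.27 to 6.88 in the others. Dguok, a mitochondrial deoxyguanosine kinase, was at 7.29 to 7.34 in Chow 3 and Chow 4, the rats low in Creg2, and at 5.94 to 6.90 in the rest, and its second set ran the same way (9.02 to 9.25 against 8.08 to 8.77). Chrna5, a nicotinic receptor subunit, was at 6.84 to 7.08 in those rats and at 6.05 to 6.48 in the rest. For Ccdc77 the widest separation was that of an MHC probe set naming RT1-A3 and RT1-A2, at 8.12 to 8.58 in the 3 low rats and 6.05 to 7.63 in the other 7. Ftcd, an enzyme of histidine breakdown, was at 6.99 to 7.23 in the same 3 rats and at 7.49 to 7.84 in the rest, and Degs1 was at 8.42 to 8.46 against 8.14 to 8.22. Pkdcc was at 7.83 to 7.89 in the rats of the upper Retsat level and at 7.43 to 7.50 in the others, and RGD1309362, Eml4 and Pak3 ran the same way. Abhd1 was at 7.90 to 7.92 in the rats low in Ppib and at 8.21 to 8.78 in the rest, and Thumpd3 at 7.09 to 7.31 in those low in Abi1 and at 7.53 to 7.99 in the rest.

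The levels did not follow the diets. In 11 of 14 genes both diets held both levels. In 5 genes the same number of C and P rats was at the upper level. In 4 genes it held more C rats and in 5 genes more P rats. In 0 genes were the diets without overlap. Complete separation of the diets is rare by chance in any gene, so that last count says little about diet. The largest imbalance was that of Eid1 (5 C and 2 P rats at the upper level), for which an exact permutation test of the number of rats gave a two-sided p = 0.167, the smallest of the 14 genes.

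By the means, Eid1 was higher in the C group by 0.36 ± 0.14 (standard error, SE, n = 5 per diet; exact permutation p = 0.0476, two-sided). It was the only 1 of 14 genes with an exact p below 0.05, against 3.09% of all probe sets. Leaving out any single C rat raised that exact permutation p to between 0.0635 and 0.0952, and leaving out any single P rat gave 0.0159 to 0.0476. The Eid1 difference stayed at 0.29 to 0.45 throughout, while fewer rats also leave fewer assignments. Without Chow 2, its highest rat, Creg2 had an exact permutation p of 0.00794, the smallest such a design allows. That value was also the smallest over all members and all single rats left out. Chow 2 was the only C rat above the P rats in Creg2, and with all rats the exact permutation p was 0.286. The value without Chow 2 is therefore a description of how much that rat mattered, not evidence of a diet difference. Lysmd4 was higher in the C group by 0.89 ± 0.63 (exact permutation p = 0.0952) and Amy1 by 0.45 ± 0.31 (0.349). Creg2 was lower by -0.68 ± 0.47 (0.286), Entpd6 by -0.42 ± 0.30 (0.167) and Plekhf2 by -0.31 ± 0.44 (0.349). For the other 8 genes the difference was at most 0.15 in size, as in Itga1 (-0.15 ± 0.30), Retsat (0.12 ± 0.17) and Cyp26b1 (-0.02 ± 0.53). By limma 0 of 14 genes passed an adjusted p of 0.05, as did 0% of all probe sets, with an adjusted p of 0.9995 for each member, and 1 gene (Eid1) had an unadjusted p below 0.05.

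**Figure D5:**
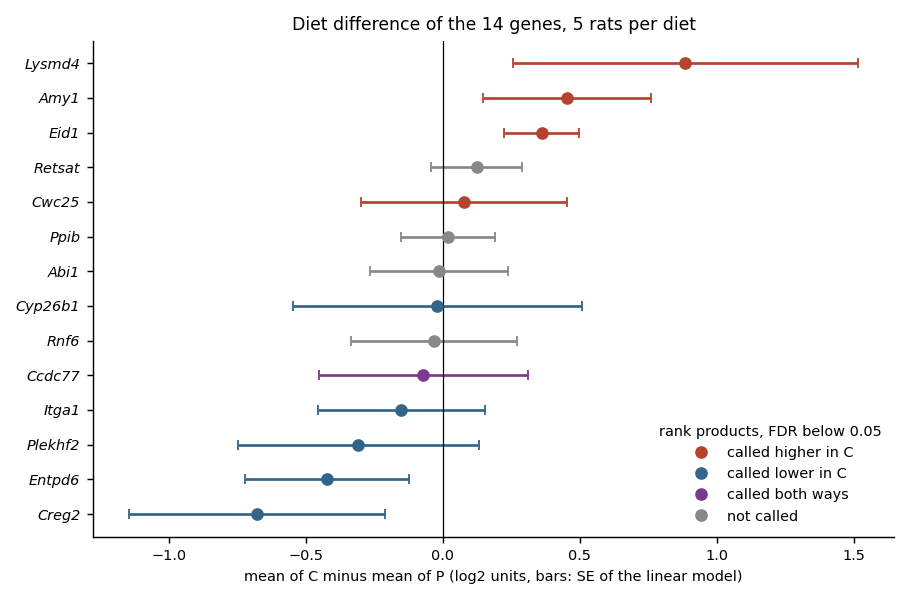
Points are the mean of 5 C rats minus the mean of 5 P rats in log2 units (x axis) for each gene, with the SE of the linear model as bars and the color giving the rank product call. The SE exceeded the difference for 9 of 14 genes, among them Cwc25, Cyp26b1, Ccdc77, Itga1 and Plekhf2, which were called.

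Rank products, the method of the study, ranks the fold differences of all 25 pairings of chow with powder rats, and it called many of these genes. At a false discovery rate (FDR) below 0.05 it called 5 of 14 genes higher in the C group (Lysmd4, Amy1, Eid1, Cwc25 and Ccdc77), against 0.941% of all probe sets. It called 6 of 14 lower (Creg2, Entpd6, Plekhf2, Cyp26b1, Itga1 and Ccdc77), against 0.818%. Among the 1391 probe sets with an SD above 0.1 the shares were 20.3% and 14.9% beside the members' 35.7% and 42.9%, and the members had been chosen for wide gaps.

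Calls and mean differences came apart. Cwc25 was called higher with a difference of 0.08 ± 0.38 and 4 of 5 rats at the upper level in each diet (FDR = 0.0418), and Cyp26b1 was called lower on its brighter set with 2 of 5 in each (FDR = 0.0144). Ccdc77 on its brighter set was called in both directions at once (FDR = 0.0384 for higher and 0.0410 for lower, difference -0.07 ± 0.38). The direction of a call also turned. Cwc25 was called lower instead of higher after quantile normalization, without Chow 2, Chow 4 or Powder 5, and without Chow 1 with Chow 4. Cyp26b1 was called higher instead of lower without Chow 2, Chow 3, Chow 5, Powder 2 or Powder 3. Leaving out single rats moved these differences across 0, from -0.17 to 0.33 for Cwc25, from -0.28 to 0.20 for Cyp26b1 and from -0.27 to 0.13 for Ccdc77. With rank sums in place of rank products 0 of 14 genes were called either way (1 and 7 probe sets of all). When only the varying probe sets were ranked, 1 member was called higher, Lysmd4, and 1 lower, Creg2, out of 1 and 4 calls in all. Without Chow 1 and Chow 4 the counts were 4 higher and 5 lower, but only 3 of the 6 lower calls remained. Ccdc77, Itga1 and Plekhf2 were lost from the lower calls and Cwc25 and Rnf6 were gained, and Cwc25 was lost from the higher calls.

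Just inside the gap minimum lay Retsat (0.41), Eid1 (0.50) and the second Cyp26b1 set (0.52), and just outside it Rdh12 (0.39), Arhgef40 (0.38) and Mrpl22 (0.35). For the share of the range Ccdc77 (51.1% and 52.3%) and Amy1 (53.3%) were just inside, and Itgav (49.4%), Mdm4 (48.6%) and RT1-CE16 (48.5%) just outside. A further 53 probe sets naming a single gene had such a gap with 1 rat alone on a side, the upper in 34 and the lower in 19. The same rule was met by 21 probe sets without a gene name, of which 0 shared the exact rats of a member and 9 differed from one in 1 rat.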

How the data were processed

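The 10 arrays, 1 per rat, were normalized and summarized by the authors with FARMS in R, and the deposited values are log2 signals per probe set. This summarization leaves a set almost flat where its probes share no signal. Arrays have no read depth, so the number of rats and their spread limit the precision. Columns were matched to rats through the sample identifiers, and the labels do not say whether rats shared a litter.

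Gene names came from the platform annotation (20826 probe sets with 1 gene, 436 with several, 9780 with none), and gene order came from GRCr8 without coordinates, since the array names no build. The members and lists were chosen with earlier results of these data known. Where a gene had 2 member probe sets, the one with the higher mean stood for it in counts over genes, but a gene was counted as called if either set was. Differences are C minus P. The diets were compared over all 31042 probe sets by rank products (25 pairs, 100 permutations, FDR below 0.05), limma 3.58.1 in R 4.3.3 with Benjamini-Hochberg adjustment, and exact permutation over 252 assignments, all two-sided except rank products, which were read in each direction. Python 3.11.15, numpy 2.4.6, pandas 2.3.3 and matplotlib 3.10.9 were used. The tests were tried on simulated data in which, unlike here, most probe sets were not flat. That trial therefore does not show how the tests behave on this table.

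Named genes were Lysmd4, Entpd6 and Plekhf2, the 12 widest gaps, the 5 largest calls in each direction, 3 on either side of each threshold, and for the first 3 genes the 3 most alike probe sets by Pearson r. Marker lists were hypothalamic neurons, leptomeninges, choroid plexus, erythrocytes, anterior pituitary, thalamus, cortex and hippocampus, oligodendrocytes and microglia, scored per rat as the mean deviation of members with an SD above 0.1. Alternatives changed the rule's thresholds, the normalization, the level filter, the statistic, the variance model, the pairing and the rats included. Leaving out Chow 1 with Chow 4 and ranking only varying probe sets were chosen after seeing the data.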

Additional observations from a re-analysis of the deposited data

Results flagged for a closer look

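In 5 of 32 combinations of a member probe set and a diet group, 1 rat stood far from the other 4 of its group. Such a distance is met by chance in about 5% of groups of this size, and the members had been selected for their gaps, so the count carries no further information. In the P group Powder 3 had a Lysmd4 signal of 7.91, with the other 4 at 5.73 to 5.96, and an Entpd6 signal of 8.21, with the others at 9.14 to 9.27. Ppib was at 10.05 in Chow 2, with the other C rats at 10.59 to 10.71, and at 9.99 in Powder 1, with the other P rats at 10.62 to 10.70. Retsat was at 9.40 in Powder 2, with the other P rats at 8.90 to 8.99.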

How the results depend on the processing

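The number of genes at separate levels was 14 and became 22 with a gap minimum of 0.3, 27 with a gap of at least 0.4 of the range, 8 with at least 0.6 of it, and 14 to 20 when single rats were left out. Without Chow 1 and Chow 4 it was 21, of which 12 were shared, and Creg2 and Retsat were lost. The genes called higher in the C group by rank products (5) became 0 with rank sums, 3 at an FDR of 0.01, 3 after quantile normalization, 1 among probe sets of a level above the median and 1 among those with an SD above 0.1. The genes called lower (6) became 0 with rank sums, 7 after quantile normalization, Cwc25 having turned from higher to lower, and 1 among those with an SD above 0.1, and by limma the count was 0 under every alternative run. When single rats were left out the counts were 4 to 6 higher and 4 to 7 lower. Single rats left out moved the difference from -0.27 to 0.13 for Ccdc77, from -0.17 to 0.33 for Cwc25 and from -0.28 to 0.20 for Cyp26b1. The 1 gene with an exact permutation p below 0.05 became 0 when the number of rats at the upper level was tested, and 0 to 1 when single rats were left out. No members lay within 50 annotated genes of each other, so the count of neighboring members with 1 grouping, 0 throughout, says nothing about stability. The calls of Amy1 and Itga1 were also lost without some rats. The cause of these changes was not tested, except that leaving out rats or probe sets leaves fewer to compare.

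As a replicate block, the shared numbers gave 5 genes called higher and 5 lower by rank products, 0 by limma and 0 by an exact sign-flip test, which cannot go below 0.05 with 5 pairs. The numbers did not pair the rats: deviations of rats with the same number correlated between -0.33 and 0.28, and 1 of 10 rats correlated best with its own number.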
